A study of Mus musculus with 2 samples.

Results

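Small nucleolar RNAs (snoRNAs) and small Cajal body RNAs (scaRNAs) were examined in RNA-seq libraries of cultures described as mouse cavernous endothelial cells (MCECs). They were taken as every gene symbol that starts with Snord, Snora or Scarna, a choice made by name and not by level. The rule found 119 symbols in 130 rows, out of 23183 symbols in 33299 rows, and the rows of a symbol were summed. Of the 119, 74 were Snord, 36 were Snora and 9 were Scarna.

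Both libraries were described as primary MCECs of adult male C57BL/6J mice, grown in M199 medium with serum. For the glucose exposure, the methods describe serum starvation for 24 hours and then high glucose (HG, 30 mM). HG+HBS received the buffer HBS, and HG+PC-NVs received 1 µg/mL of vesicle-like particles made by extruding mouse cavernous pericytes (PC-NVs). The labels give 5 days of glucose, while the methods give 72 hours of glucose and 24 hours of PC-NVs. There was 1 library per condition, so no difference could be set against the spread between cultures and no test was made. The number of mice behind each culture is not given in the sources used here. Values are normalized FPKM (fragments per kilobase of transcript, scaled to the depth of the library), and a difference is HG+PC-NVs minus HG+HBS on the log2(FPKM + 1) scale. The labelled cell type was checked against its markers, and their levels did not bear it out. In both libraries the endothelial markers summed lower than the fibroblast, mural and leukocyte markers. The 10 endothelial markers summed to 8.51 FPKM in HG+HBS against 8.34 FPKM in HG+PC-NVs, and 2 and 1 of them reached 1 FPKM. Cdh5, the vascular endothelial cadherin, was the highest at 5.05 and 5.73 FPKM, and none of the 10 was listed at 0. The 6 fibroblast markers summed to 1454 and 1913 FPKM, where Dcn alone was higher in HG+PC-NVs (623 and 1283 FPKM) and the other 5 were lower. The 6 mural markers summed to 105 and 68.4 FPKM, with 4 lower and 2 higher in HG+PC-NVs. The 2 higher ones were Rgs5 (1.69 and 7.23 FPKM) and Myh11 (0.0108 and 0.0122 FPKM). Myh11 was too low for a direction to be read. The 4 leukocyte markers summed to 258 and 227 FPKM, with 3 lower and 1 higher. Most of that sum was Lyz2 (212 and 193 FPKM), followed by Cd68 (36.2 and 26.3 FPKM) and Csf1r (8.39 and 6.20 FPKM). Ptprc, the one that was higher, was at 1.44 and 1.67 FPKM, below Cdh5. The lists differ in size, and a single gene can rule a sum. The part of cell makeup in the values below was not tested, and fewer cells of a type and less RNA per cell cannot be told apart in bulk RNA. From the most frequent low value of long transcripts, HG+HBS would hold roughly 13400000 fragments and HG+PC-NVs 11600000. How the values were normalized is not known, so these figures may differ from the true depths.

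SnoRNAs are short stable RNAs that guide chemical marks on other RNAs, mostly ribosomal RNA in the nucleolus. Box C/D snoRNAs (Snord) direct ribose methylation by fibrillarin, box H/ACA snoRNAs (Snora) direct pseudouridylation by dyskerin, and scaRNAs (Scarna) act in Cajal bodies on spliceosomal RNAs. In mammals most of them are cut out of introns of host genes, many of which encode ribosomal proteins, and the mature RNAs carry no poly(A) tail. The libraries here were made after poly(A) selection with a stranded kit, so a mature snoRNA is not what the method was built to capture.

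The 7 snoRNAs that reached 7 FPKM in at least one library carry the values described below, and their sequences are shown because all of them are much shorter than the messenger RNAs around them. Sequences and positions are from the GENCODE M21 transcripts of GRCm38, read 5′ to 3′ on the strand of the RNA. Capitals mark box C (TGATGA within the first 25 nt) and box D (CTGA within the last 25 nt) of Snord RNAs, and the ACA box (within the last 10 nt) of Snora RNAs, where these letters were found. Snord89 lies at chr1:39548745-39548854 on the minus strand, Snord83b at chr15:80078498-80078591 (minus), Snord22 at chr19:8725866-8725991 (plus), Snora15 at chr5:129794546-129794676 (plus), Snora65 at chr2:32963291-32963420 (plus), Snora7a at chr6:115807975-115808114 (minus) and Snora81 at chr16:23110756-23110933 (plus).
Snord89: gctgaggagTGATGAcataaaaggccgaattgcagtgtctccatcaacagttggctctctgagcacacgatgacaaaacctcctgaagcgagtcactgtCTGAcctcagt
Snord83b: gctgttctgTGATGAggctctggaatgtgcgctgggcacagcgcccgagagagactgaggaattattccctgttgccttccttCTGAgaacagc
Snord22: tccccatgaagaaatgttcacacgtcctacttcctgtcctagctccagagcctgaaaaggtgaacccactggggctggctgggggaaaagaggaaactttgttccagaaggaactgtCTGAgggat
Snora15: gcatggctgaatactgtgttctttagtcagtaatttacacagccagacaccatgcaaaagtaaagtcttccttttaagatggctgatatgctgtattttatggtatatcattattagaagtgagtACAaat
Snora65: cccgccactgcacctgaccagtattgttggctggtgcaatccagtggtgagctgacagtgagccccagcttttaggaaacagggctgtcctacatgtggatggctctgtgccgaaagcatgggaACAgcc
Snora7a: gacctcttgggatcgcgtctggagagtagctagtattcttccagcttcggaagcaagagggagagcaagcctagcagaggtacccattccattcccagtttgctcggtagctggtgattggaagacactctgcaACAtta
Snora81: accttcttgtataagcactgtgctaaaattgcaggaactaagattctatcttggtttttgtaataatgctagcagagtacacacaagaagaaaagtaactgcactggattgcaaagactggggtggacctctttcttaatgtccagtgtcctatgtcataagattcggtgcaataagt

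Snord89 and Snord83b held both box C and box D, each starting at nucleotide 10 for box C. Snord22 (U22, needed for processing of small-subunit ribosomal RNA) held box D but not these letters of box C. Snora15, Snora65 and Snora7a held ACA 3 nt before the end, and Snora81 did not hold it in the window. Both boxes were found in 68 of the 98 annotated Snord RNAs (69.4%), and ACA in 38 of the 40 annotated Snora RNAs (95.0%), on the RNA strand. The 7 sequences were 94 to 178 nt long. RefSeq gives several of them shorter ends, for example 77 nt for Snord83b and 94 nt for Snord89.

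Most snoRNAs and scaRNAs were not detected in either library. Of the 119 symbols, 101 were listed at 0 in both, namely 68 of 74 Snord, 26 of 36 Snora and 7 of 9 Scarna. They include Snord118 (U8, needed for processing of large-subunit ribosomal RNA) and Snord116, a box C/D RNA of an imprinted cluster linked to Prader-Willi syndrome. The other 18 were above 0 in HG+HBS, and 8 of these 18 were also above 0 in HG+PC-NVs. By class, the HG+HBS library listed 6 Snord, 10 Snora and 2 Scarna above 0, while 3 Snord, 4 Snora and 1 Scarna were so in HG+PC-NVs. No symbol was above 0 in HG+PC-NVs alone.

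The larger number in HG+HBS came mostly from values too small to be a sequenced fragment. Over the full length of the RNA, 1 fragment was worth at least 0.271 FPKM for these RNAs in HG+HBS, the value for Scarna13. Of the 18 RNAs above 0 in HG+HBS, 12 were below the worth of 1 fragment of their own length, and in HG+PC-NVs 0 of 8 were. At 1 FPKM or more there were 6 in HG+HBS against 7 in HG+PC-NVs, 4 of them in both, so the larger number in HG+HBS was gone. These small values were not special to snoRNAs. Among all symbols with an annotated length, 1628 of the 17029 above 0 in HG+HBS (9.56%), against 351 of the 15513 in HG+PC-NVs (2.26%), were below 1 fragment. Across all deposited rows, 3748 rows were above 0 in HG+HBS while at 0 in HG+PC-NVs, and 0 rows were the other way round. The cause of this asymmetry was not tested.

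Of the 9 RNAs at 1 FPKM or more in at least one library, 4 reached that level in both. Snord22 was at 62.4 FPKM in HG+HBS against 65.3 FPKM in HG+PC-NVs, a difference of 0.06. Snora81, a box H/ACA RNA, was at 7.53 and 9.85 FPKM, a difference of 0.35. Both libraries thus held these snoRNAs at similar levels. Snora74a (U19) was at 1.84 and 2.34 FPKM, a difference of 0.23. Snord17, the longest box C/D RNA of the 9, was at 3.90 FPKM in the first library and 1.63 FPKM in the second, a difference of -0.90. Counted over their full length, Snora74a rests on at most about 4.84 and 5.30 fragments and Snord17 on at most about 12.4 and 4.48. No difference is read for either. Below 1 FPKM in both libraries, Snord47 was at 0.0658 FPKM and Snora68 at 0.0446 FPKM in HG+HBS, and both were listed at 0 in HG+PC-NVs. These were, like Scarna6 at 0.000807 FPKM and 0, below 1 fragment. The scaRNA highest in either library was Scarna13 (U93), at 0.000685 and 0.890 FPKM, the latter at most about 2.83 fragments.

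The remaining 5 of the 9 were high in one library and at or near 0 in the other. Snord83b was at 0.0635 FPKM in HG+HBS against 2166 FPKM in HG+PC-NVs. Snora65 was at 0.0357 and 72.2 FPKM, and Snora7a at 0.0177 and 55.5 FPKM. These 3 RNAs were each far below the worth of 1 fragment in HG+HBS. In the other direction, Snord89 was at 504 FPKM in HG+HBS and listed at 0 in HG+PC-NVs. Snora15 was at 29.3 FPKM in HG+HBS and listed at 0 in HG+PC-NVs. So both directions and both classes of snoRNA were represented, with no common direction for Snord or Snora. No fold is given for these 5, since the lower value is 0 or below 1 fragment.

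On the log2(FPKM + 1) scale the differences were 10.99 for Snord83b, 6.14 for Snora65, 5.79 for Snora7a, -4.92 for Snora15 and -8.98 for Snord89. A symbol was called when it reached 7 FPKM in at least one library and differed by more than 4-fold on that scale. Among the 7 snoRNAs that reached 7 FPKM, 3 were called as higher in HG+PC-NVs and 2 as lower. The same rule called 62 of all 7894 symbols at that level higher (0.785%) and 6 lower (0.076%). The other symbols called lower were Cygb, Dmp1, Inmt and Srd5a2. Each of the 5 snoRNAs passed the level limit only through the library in which it was high, so it had to differ, and their count supports nothing by itself. No snoRNA lay near the 4-fold line of 2 on the log2 scale: the nearest called one was Snora15 and the nearest other one at this level was Snora81. The median difference of the 7 was 0.35, beside 0.01 for all symbols at that level, and it is the value of Snora81. It depends on the level limit: it was 5.79 over the 5 snoRNAs at 30 FPKM or more and -0.0034 over the 18 above 0, so no direction is read from it.

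**Figure D1:**
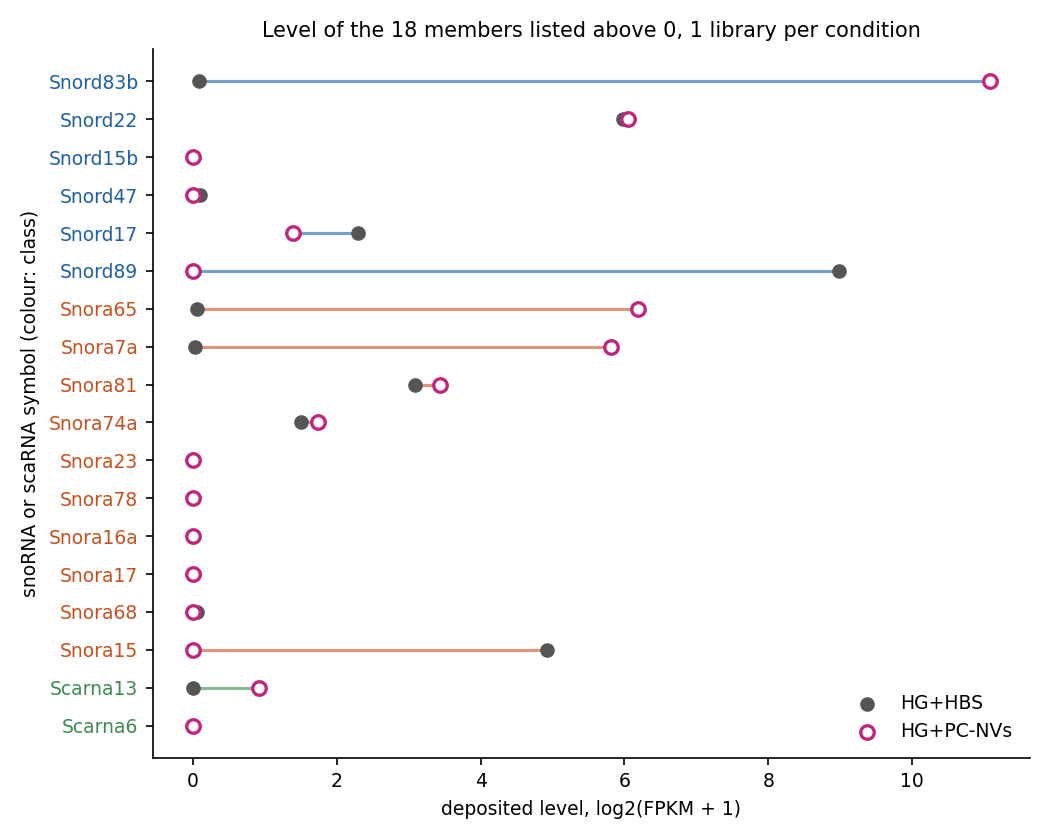
Level of the 18 RNAs listed above 0, as log2(FPKM + 1), with a filled point for HG+HBS, an open point for HG+PC-NVs, and the symbol's colour giving its class (blue Snord, orange Snora, green Scarna). Snord83b, Snora65 and Snora7a are at or near 0 in HG+HBS, Snord89 and Snora15 are at 0 in HG+PC-NVs, and the points of Snord22 nearly coincide.

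A single RNA made up most of the class in each library. Snord RNAs summed to 570 FPKM in HG+HBS, 88.3% of it from Snord89, and to 2233 FPKM in HG+PC-NVs, 97.0% of it from Snord83b. Snora RNAs summed to 38.8 FPKM, 75.5% of it from Snora15, and to 139.9 FPKM, 51.6% of it from Snora65. Together the 119 symbols took 0.117% of the summed FPKM of HG+HBS and 0.409% of that of HG+PC-NVs. Without the 5 called RNAs the sums were 75.8 and 80.0 FPKM. Those 5 were picked for differing by more than 4-fold, so the closeness of these sums supports nothing by itself. Snord83b made up 91.3% of the total over all 119 symbols in HG+PC-NVs, and Snord89 made up 82.7% of that in HG+HBS. With Snord83b alone left out, the total of HG+PC-NVs would be the lower of the 2. The direction of the summed level thus rests on 1 RNA, and none is read from it.

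The 5 called RNAs were 94 to 140 nt long. The 4 RNAs at 1 FPKM or more that were not called were 126 to 238 nt long, with a median of 187 nt. Snord22, at 126 nt, was the exception in length, as short as the called RNAs but nearly equal in the libraries. Among all symbols at 7 FPKM or more, 6 had no transcript of 150 nt or longer. All 6 were snoRNAs, and 5 of them were past 4-fold. Of the 4 symbols from 150 to under 200 nt, 0 were. These were Snora81, the neuronal RNA Bc1 (189 and 177 FPKM, 168 nt), Gm12338 (11.9 and 10.4 FPKM, 192 nt) and the snoRNA host Snhg9 (4.88 and 9.36 FPKM, 183 nt). Together 5 of 10 symbols under 200 nt (50.0%) were past 4-fold, against 62 of 7631 longer ones (0.812%). These 5 are the called snoRNAs, which reached the level only through the library in which they were high. Their share supports nothing by itself, and no effect of length is read from it. With no level limit the share was 5 of 21 short symbols above 0 (23.8%), and at 1 FPKM it was 5 of 12 (41.7%). Longer symbols were not counted at these limits. At 7 FPKM, no snoRNA was 200 nt or longer. Of the symbols from 200 to under 300 nt, 1 of 2 was past 4-fold, and from 300 to under 500 nt 3 of 24 (12.5%). Between 500 and 1000 nt 7 of 356 were past 4-fold (1.97%), and between 1000 and 2000 nt 21 of 1375 (1.53%). At 2000 nt or more it was 30 of 5874 (0.511%). Length and snoRNA class cannot be told apart below 150 nt, since no other RNA of that length reached the level.

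**Figure D2:**
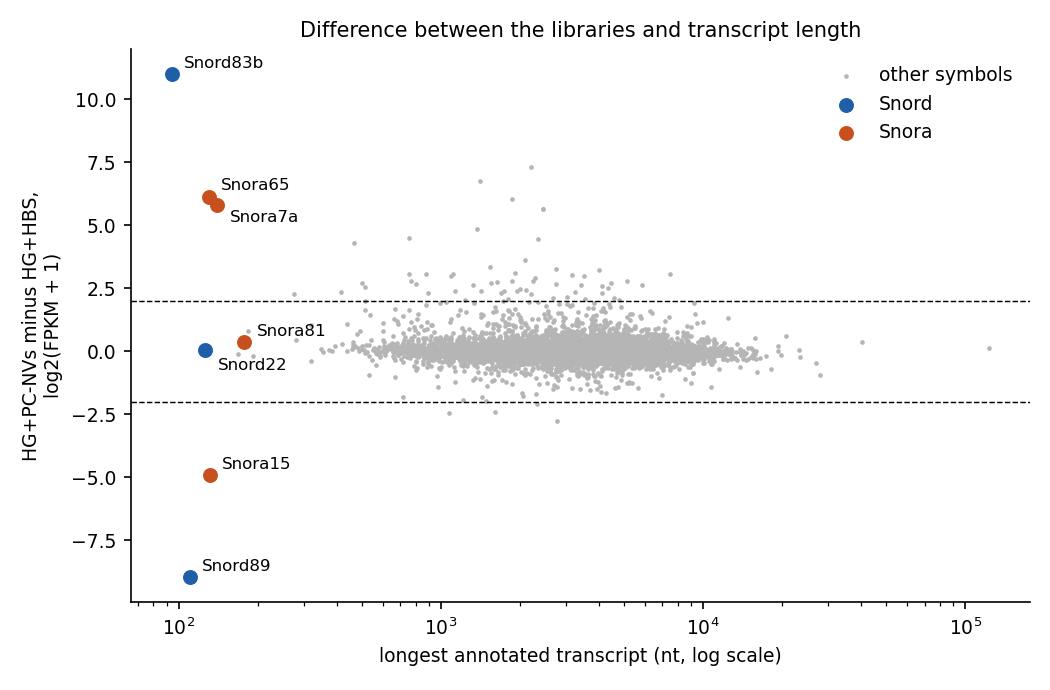
Difference between the libraries (HG+PC-NVs minus HG+HBS, log2(FPKM + 1)) against the longest annotated transcript of each symbol (nt, log scale), for symbols at 7 FPKM or more in at least one library. Grey points are other symbols, blue points Snord, orange points Snora, and dashed lines mark 4-fold. 5 of the 7 snoRNAs lie outside the lines and span differences from -8.98 to 10.99, while Snord22 and Snora81 lie near 0.

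FPKM of such RNAs rests on their length in a particular way. Cufflinks divides fragments by an effective length, the number of positions at which a fragment of the library's size can start, and this becomes very small when an RNA is shorter than a usual fragment. A few fragments can then give a large FPKM. Divided by full length instead, 2166 FPKM of Snord83b would be at most about 2353 fragments, 504 FPKM of Snord89 at most about 742, and 72.2 FPKM of Snora65 at most about 108. The fragment sizes and effective lengths are not in the files. How many fragments these values rest on was thus not determined, and no counting interval is given.

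Host genes were compared next, as a snoRNA cut from an intron shares its transcription with the host. A host was any protein-coding or long noncoding gene whose span holds the snoRNA on the same strand in GENCODE M21. Of the 118 annotated symbols, 104 lay in a host listed in the files, in 77 different hosts. At 7 FPKM or more in at least one library there were 67 hosts, and 0 were past 4-fold in either direction. Their differences ran from -0.60 to 0.82 with a median of 0.06, which turned to -0.07 with quantile normalization between the libraries. The median of all symbols at that level was 0.01, and -0.03 with quantile normalization.

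The hosts of the called snoRNAs were ribosomal protein and chaperone genes at steady levels. Rpl3, which encodes a large-subunit ribosomal protein and holds Snord83b in an intron, was at 645 FPKM in HG+HBS against 658 FPKM in HG+PC-NVs. Its other annotated member in the files, Snord43, was listed at 0 in both. Rpl12, the host of Snora65, was at 1390 and 1473 FPKM. Rpl32, the host of Snora7a, was at 1647 and 1595 FPKM. Cct6a, a subunit gene of the cytosolic chaperonin and the host of Snora15, was at 121 and 127 FPKM. None of these hosts was past 4-fold. In HG+PC-NVs Snord83b was listed above its host, while Snora65 and Snora7a were well below theirs. Snord89 lies within Gm15832, a gene not used here because no row of the tables carries that symbol. The nearest protein-coding gene on its strand, Rnf149, a ring finger gene 2441 nt away that was looked up after the values were seen, was at 70.8 and 176 FPKM, opposite in direction to Snord89.

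The hosts of Snord22, Snora81 and Snord17 were within 4-fold too. Snhg1, a noncoding host whose exons overlap Snord22, was at 24.1 and 27.8 FPKM, below Snord22 in both libraries. Eif4a2, a translation initiation factor gene, holds Snora81 and was at 104 and 103 FPKM. It also holds Snord2, listed at 0 in both. Snx5, a sorting nexin gene and the host of Snord17, was at 54.3 and 48.4 FPKM.

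A high level of the host did not by itself come with a listed level of its snoRNA. Of the 100 annotated RNAs at 0 in both libraries, 89 had a host in the files, and 37 had one at 100 FPKM or more in both. Of the 18 above 0, 7 had such a host. The median host level over the 89 was 52.5 FPKM in HG+HBS against 49.0 FPKM in HG+PC-NVs. For the 15 RNAs above 0 that have a host it was 63.7 and 66.7 FPKM. Tpt1, which encodes the translationally controlled tumor protein, was the highest host, at 4286 and 4253 FPKM, and its Snora31 was listed at 0 in both. Rps12 (1950 and 2222 FPKM) with Snora33 and Snord100, and Rpl23a (2001 and 1964 FPKM) with Snord4a, Snord42a and Snord42b, held only RNAs listed at 0.

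**Figure D3:**
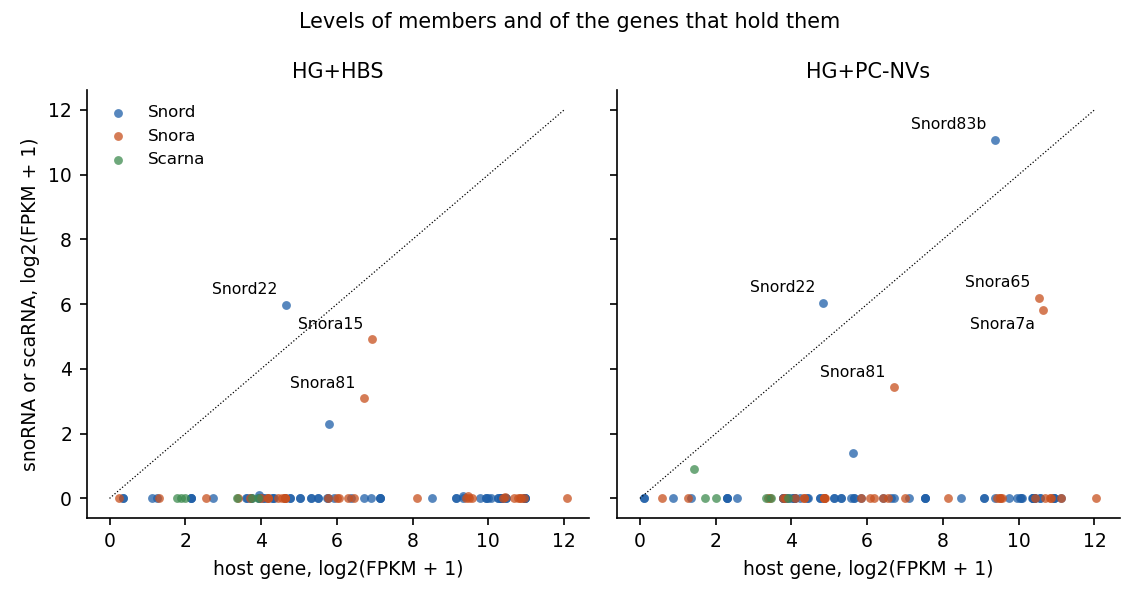
Level of each snoRNA or scaRNA (vertical axis) against that of its host gene (horizontal axis), both as log2(FPKM + 1), with HG+HBS at left and HG+PC-NVs at right. Blue points are Snord, orange Snora and green Scarna, and the dotted line marks equal levels. Most RNAs lie at 0 across the whole range of host levels, and the named RNAs above 0 are different ones in the 2 panels apart from Snord22 and Snora81.

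The RNAs above 0 had a median length of 134.5 nt (77 to 275 nt), against 87.0 nt (64 to 414 nt) for those at 0. The groups also differed in class: Snora RNAs were 10 of the 18 above 0 and 26 of the 101 at 0. Length was not compared within a class, so no effect of length is read. In HG+HBS, 12 of the 18 were also below the worth of 1 fragment. The RNAs above 0 overlapped an exon of an annotated host transcript in 9 of 15 cases, and those at 0 in 39 of 89. Some of their reads could have been counted elsewhere. Of the 18, 9 had at least 90% of their length in a transcript of an overlapping gene at 90% identity or more, among them Snord22 (in Snhg1), Snora65 (Rpl12), Snora7a (Rpl32) and Snora81 (Eif4a2). Snora65 had copies in 3 further annotated genes and Snora81 in 1. For Snord83b, Snord89 and Snora15 neither kind of copy was found among the annotated transcripts. The values of Snora65, Snora7a, Snora81 and Snord22 could thus be split with such a copy. Snora15 still overlaps an exon of its host Cct6a, and shorter copies were not counted. Whether reads of Snord83b, Snord89 or Snora15 are shared was therefore not determined.

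The protein partners of snoRNAs did not differ between the libraries by 4-fold. Of 17 genes of the core and assembly lists at 7 FPKM or more, 0 passed in either direction, and their median difference was -0.03. None of the 5 box C/D core genes in the files was called (median -0.01). Fbl (fibrillarin, the methyltransferase) was at 65.0 and 78.6 FPKM, a difference of 0.27, the largest of them. Nop56 was at 44.6 and 49.0 FPKM and Nop58 at 38.9 and 38.7 FPKM. None of the 4 box H/ACA core genes was called either (median -0.01). Dkc1 (dyskerin, the pseudouridine synthase) was at 12.3 and 12.4 FPKM, and Nop10 at 61.1 and 64.9 FPKM. Of 11 assembly factors, 8 reached 7 FPKM and 0 were called (median -0.06). The one with the widest difference was Tcof1, a nucleolar phosphoprotein gene, at 12.2 and 8.43 FPKM (-0.48).

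Genes of Cajal bodies and of snoRNA end processing were likewise within 4-fold. Of 8 Cajal body genes, 3 reached 7 FPKM, with a median difference of -0.16. Coil, which encodes the Cajal body scaffold coilin, was at 5.19 and 5.02 FPKM, and Wrap53, which brings scaRNAs to Cajal bodies, at 5.37 and 6.76 FPKM. Smn1 was at 20.1 and 17.4 FPKM. Of the 6 end processing and decay genes listed, all reached 7 FPKM, and the differences ran from -0.60 to 0.25 with a median of 0.07. Parn, a deadenylase that trims RNA ends, was at 12.9 and 8.17 FPKM (-0.60), and Exosc10, the nuclear exosome nuclease, at 34.5 and 31.1 FPKM.

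Other short noncoding RNAs were compared as well. Those that reached 7 FPKM were longer than the snoRNAs at that level, while others on the list, such as Rnu6 (107 nt) and Rnu12 (151 nt), were of snoRNA length and listed at 0. Of 11 listed in the files, HG+HBS listed 5 above 0 while HG+PC-NVs listed 3. Rmrp, the RNA of a ribonuclease that cuts ribosomal RNA precursors, was at 15.2 and 21.4 FPKM with a length of 281 nt. Rpph1, the RNA of ribonuclease P, was at 8.46 and 18.7 FPKM, a difference of 1.06. Terc, the telomerase RNA, was at 0.335 and 0.400 FPKM. The 2 that reached 7 FPKM, Rmrp and Rpph1, had a median difference of 0.76 and were within 4-fold, while Rnu11 and Vaultrc5 were above 0 in HG+HBS only, below 0.1 FPKM.

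**Figure D4:**
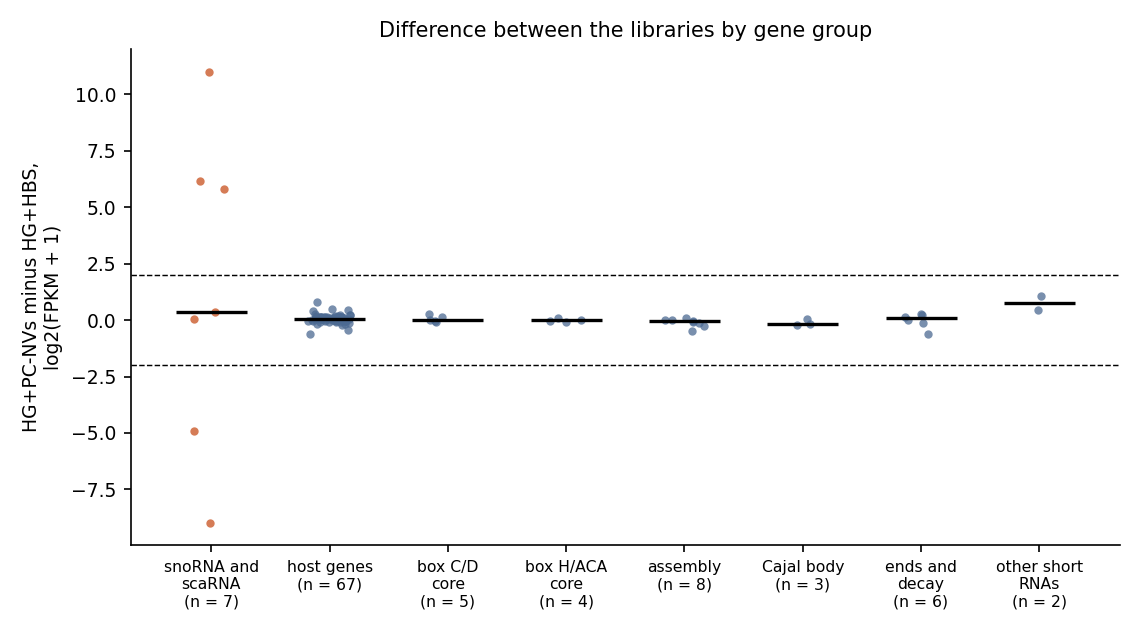
Difference between the libraries (HG+PC-NVs minus HG+HBS, log2(FPKM + 1)) for genes at 7 FPKM or more in at least one library, 1 point per gene, with a bar at the median of each group and dashed lines at 4-fold. The 7 snoRNAs run from -8.98 to 10.99, while all host, partner and other short RNA genes lie between -0.60 and 1.06.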

How the data were processed

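The deposited values are log2(FPKM + 1) per transcript row, which the authors made by trimming reads (FASTX_Trimmer, BBMap), aligning them to mm10 with TopHat, computing FPKM with Cufflinks and normalizing in R with edgeR. The methods name quantile normalization, but the deposited libraries do not share one distribution: 7392 rows were at 0 in HG+HBS against 11140 in HG+PC-NVs, and the sorted values differed by over 0.01 (log2) at 13954 of 33299 ranks. How the values were normalized is therefore not known, and quantile normalization was run here as an alternative. Versions and the annotation used by the authors are not given in the sources used here. Here each value was turned back to FPKM, rows of a symbol were summed, and differences were taken with a pseudocount of 1 FPKM. Calls needed 7 FPKM in at least one of the 2 libraries and a difference past 4-fold. With 1 library per condition no test, error or p-value was possible. Fragment worth was estimated from the most frequent low value of FPKM times length over 2189 genes with 1 transcript longer than 1500 nt. Lengths, positions, hosts and sequences came from GENCODE M21 (GRCm38, 118 of 119 symbols matched), and synonyms and alternative lengths from RefSeq. Copies were searched with BLAST 2.17.0. Computations ran in Python 3.11.15 (pandas 2.3.3, with numpy 2.4.6 and scipy 1.17.1; plots by matplotlib 3.10.9), and the calling step was tested on simulated data. Named snoRNAs and scaRNAs were those at 7 FPKM or more, the 5 highest of each class in each library, those past 4-fold and those nearest that line, with their hosts and the listed partner genes. Rnf149, the further non-members set by length, and the RNAs given as examples at 0 were chosen after their values were seen. The members, the lists (host, box C/D core, box H/ACA core, assembly, Cajal body, end processing and decay, other short RNAs, cell type markers) and the comparisons were chosen with earlier results of these data known. Alternatives were another pseudocount, level limit, fold, length limit, detection limit and scaling.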

Additional observations from a re-analysis of the deposited data

How the results depend on the processing

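The number of snoRNAs called lower was 1 instead of 2 with a pseudocount of 10 FPKM, where Snora15 came to -1.97, and 1 with a level limit of 30 FPKM, which Snora15 did not reach. Snord83b, Snora65 and Snora7a were called higher in every setting run. Each was below 0.1 FPKM in HG+HBS and above 30 FPKM in HG+PC-NVs, so these settings had little room to change the calls. That the calls stayed the same supports nothing by itself. The share of short RNAs past 4-fold was 83.3% under 150 nt instead of 50.0% under 200 nt, which leaves 5 of 6 symbols instead of 5 of 10, and 23.8% with no level limit, 41.7% at 1 FPKM, 66.7% at 30 FPKM and 40.0% with a pseudocount of 10 FPKM. The median of the hosts was -0.068 with quantile normalization instead of 0.058. The number of symbols above 0 in HG+HBS was 6 at a limit of 1 FPKM and 6 at a limit of 1 fragment, instead of 18. The median difference of the snoRNAs, 0.35, ran from -0.0034 with no level limit to 5.79 at 30 FPKM. Snord22 came to -0.00052 with quantile normalization. Centring on the median raised all differences slightly, Snora81 from 0.35 to 0.36. No paired analysis was possible because there was 1 library per condition, and for that reason no replicate could be left out. Depth limits the RNAs below 1 fragment.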

Other observations

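Of the 7894 symbols at 7 FPKM or more in at least one library, 7 were below 0.1 FPKM in the other. That limit was chosen after the values were seen. Of these 7 symbols, 5 were the snoRNAs Snord83b, Snord89, Snora65, Snora7a and Snora15. Each of the 5 reached 7 FPKM only through the library in which it was high. Their count therefore supports nothing by itself. The other 2 symbols were longer. Atp6v0c-ps2, a pseudogene of 465 nt, was at 0.0167 FPKM in HG+HBS against 19.2 FPKM in HG+PC-NVs. Cd209f, a lectin gene of 1537 nt, was at 0.00775 and 9.22 FPKM.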
